A study of Mus musculus with 9 samples.

Results

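The interleukin-1 (IL-1) family of cytokines and receptors was followed in mouse ear skin 6 h after a contact allergen, an irritant or the vehicle alone was put on the ear. Members were the genes Il1a, Il1b, Il1rn, Il1r1, Il1r2, Il1rap, Il1rl1, Il18, Il33 and Il36g, each taken with every probe set that the array annotation gives to its symbol. This rule found 16 probe sets for 9 of the 10 members, among 45037 probe sets other than controls and 18193 named genes. Il1rl1, the receptor for IL-33, had no probe set in the annotation used and was not analysed here. The annotation lists Il36g under its older name Il1f9, and the match was made through the gene's RefSeq synonym. Il1rap had 5 probe sets, Il1rn 3 and Il1r1 2, while Il1a, Il1b, Il1r2, Il18, Il33 and Il36g had 1 each.

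The skin came from C57BL/6 mice and was hybridised on 9 arrays, 3 for each treatment. DNFB (dinitrofluorobenzene, the chemical allergen) and BAC (benzalkonium chloride, the skin irritant) were applied to right ears, and acetone/olive oil alone, the vehicle, to left ears. Side of the ear and treatment therefore cannot be told apart in the comparisons with the vehicle, while DNFB and BAC share a side. The labels do not say whether vehicle ears are the opposite ears of treated animals. The sources used here give no dose, age or sex. Replicates carry numbers in the labels with no word on separate animals, so that p-values measure only how far these samples differ, and that spread may be technical. Whole ear skin was used, and in such bulk RNA a change in the number of cells of a type and a change in RNA per cell cannot be told apart. Keratinocyte markers had a summed signal of 102946 to 131918 over the arrays, and 16 of 16 measured genes passed the filter on low signals. Median signals were 71.2 to 86.3 over the arrays. The 3′ to 5′ ratio of the Gapdh control, a sign of RNA quality, was 0.856 to 0.880 with vehicle, 0.917 to 0.932 with BAC and 0.841, 1.36 and 0.943 on DNFB replicates 1 to 3, so that DNFB replicate 2 stood apart by this ratio. The same ratio of the actin control was 1.05 to 1.10 with vehicle, 1.18 to 1.22 with BAC and 1.09, 1.28 and 1.23 on DNFB replicates 1 to 3, above all vehicle arrays on every BAC array and on DNFB replicates 2 and 3. The actin ratio moved with treatment, and its part in the results below was not tested.

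IL-1 alpha and IL-1 beta are ligands of one receptor, made of the binding chain IL-1R1 and the shared accessory chain encoded by Il1rap. The receptor passes the signal through MyD88 and the IRAK kinases to NF-kB. Keratinocytes store IL-1 alpha, IL-18 and IL-33, which can be set free when the epidermis is damaged, whereas IL-1 beta and IL-18 are made as precursors that inflammasome caspases cut. Il1rn encodes the receptor antagonist, and Il1r2 a decoy receptor that binds IL-1 without passing on a signal. IL-36 gamma, encoded by Il36g, is an epithelial ligand of a separate receptor that also uses the accessory chain. IL-1 signalling in skin is known from work on contact allergy, where it acts early on Langerhans cells and on the entry of neutrophils.

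The 5 ligand and antagonist genes Il1a, Il1b, Il1rn, Il33 and Il18, whose transcripts went different ways, are shown by the 250 bases before a transcription start, to give the sequence context of the values that follow. Il1a and Il1b are next to each other on chromosome 2, Il1rn lies in another run of IL-1 genes on that chromosome, and Il18 and Il33 lie on chromosomes 9 and 19. Capitals mark a match to TATAAA, to the AP-1 motif TGANTCA or to the NF-kB motif (GGG, any 5 bases, CC) on either strand. The sequences are from RefSeq, build GRCm38.p6, and run 5′ to 3′ on the strand of the gene. The windows are chr2:129309973-129310222 (minus strand) for Il1a, chr2:129371140-129371389 (minus strand) for Il1b, chr2:24336610-24336859 (plus strand) for the first start of Il1rn, chr19:29945540-29945789 (plus strand) for the second start of Il33 and chr9:50554450-50554699 (plus strand) for Il18.
Il1a: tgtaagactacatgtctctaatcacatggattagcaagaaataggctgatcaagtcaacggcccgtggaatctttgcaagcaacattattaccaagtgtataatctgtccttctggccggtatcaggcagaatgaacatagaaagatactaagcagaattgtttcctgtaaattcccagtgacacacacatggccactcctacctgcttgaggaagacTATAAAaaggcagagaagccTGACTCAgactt
Il1b: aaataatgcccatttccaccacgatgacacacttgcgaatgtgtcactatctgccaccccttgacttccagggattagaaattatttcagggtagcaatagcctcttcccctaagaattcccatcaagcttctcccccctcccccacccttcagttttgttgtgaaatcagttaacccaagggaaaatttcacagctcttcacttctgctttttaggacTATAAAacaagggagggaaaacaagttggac
Il1rn: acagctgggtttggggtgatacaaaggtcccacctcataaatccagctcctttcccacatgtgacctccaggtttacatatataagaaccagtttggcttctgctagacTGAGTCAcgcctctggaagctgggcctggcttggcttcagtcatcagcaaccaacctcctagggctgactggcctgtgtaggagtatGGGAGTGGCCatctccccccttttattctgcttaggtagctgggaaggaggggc
Il33: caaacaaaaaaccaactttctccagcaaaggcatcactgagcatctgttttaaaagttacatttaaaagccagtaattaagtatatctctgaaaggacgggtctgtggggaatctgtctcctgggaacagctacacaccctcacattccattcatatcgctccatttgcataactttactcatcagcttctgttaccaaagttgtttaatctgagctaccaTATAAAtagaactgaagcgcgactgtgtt
Il18: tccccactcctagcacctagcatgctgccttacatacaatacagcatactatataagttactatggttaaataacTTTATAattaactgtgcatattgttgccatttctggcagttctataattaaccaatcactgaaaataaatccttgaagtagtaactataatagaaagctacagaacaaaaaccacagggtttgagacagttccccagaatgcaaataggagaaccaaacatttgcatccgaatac

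TATAAA stood 32 to 27 bases before the start in Il1a, 31 to 26 bases before it in Il1b and 29 to 24 bases before the second start of Il33. At the first start of Il33, not shown, it stood 203 to 198 bases upstream. Which start gave the transcripts read by the probe sets was not tested. In Il18 the only match, TTTATA on the strand shown, lay 175 to 170 bases upstream. The Il1a window also held TGACTCA 12 to 6 bases before the start, and the Il1rn window held TGAGTCA 141 to 135 bases and GGGAGTGGCC 54 to 45 bases before it. The 10 members had 15 such windows, since some genes have several starts. TATAAA was found in 5 of them and in 12.4% of the 32851 windows of all RefSeq starts, the AP-1 motif in 2 against 6.75% of all windows, and the NF-kB motif in 4 against 45.8%. Of the 2 further motifs searched, the CRE motif TGACGTCA was found in 0 member windows and 1.55% of all windows, and the antioxidant response motif TGACNNNGC in 1 member window, of Il1rl1, and 10.2% of all windows. The motifs TGANTCA and TGACNNNGC can overlap. A match describes letters only, and binding was not measured.

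The transcripts of the family parted into several patterns. Il1b rose after both compounds and reached higher signals after BAC than after DNFB. Il1r1 rose after both, Il18 fell after both, and Il1r2 rose after BAC. Il33 rose after DNFB and, by a call that held in 6 of 19 alternative settings, after BAC. Il1a fell after DNFB, by a call that held in 11 of 19 settings. Il1rap and Il36g passed no test. Signals are MAS5 intensities on a linear scale, changes are differences of mean log2(signal + 16), and a change was called at an adjusted p under 0.05 in a limma fit over 14122 genes. DNFB against the vehicle called 5 of the 9 measured members, 3 higher and 2 lower, where 13.8% of all tested genes were called. BAC against the vehicle called 5 members, 4 higher and 1 lower, where 14.2% of all tested genes were called. DNFB against BAC called 2 members, both lower after DNFB, where 6.8% of all tested genes were called. Without DNFB replicate 3 the count for DNFB against vehicle was 3 members, and the count for DNFB against BAC was 1 without vehicle replicate 3, DNFB replicate 2, DNFB replicate 3, BAC replicate 2 or BAC replicate 3. The moderated F test over the 3 treatments called 7 of 9, all but Il1rap and Il36g, where 19.4% of all tested genes passed. All 9 measured members passed the filter on low signals with the probe set used for the gene. Both comparisons with the vehicle share the same 3 vehicle arrays, so their values are set side by side and not related to each other.

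**Figure D1:**
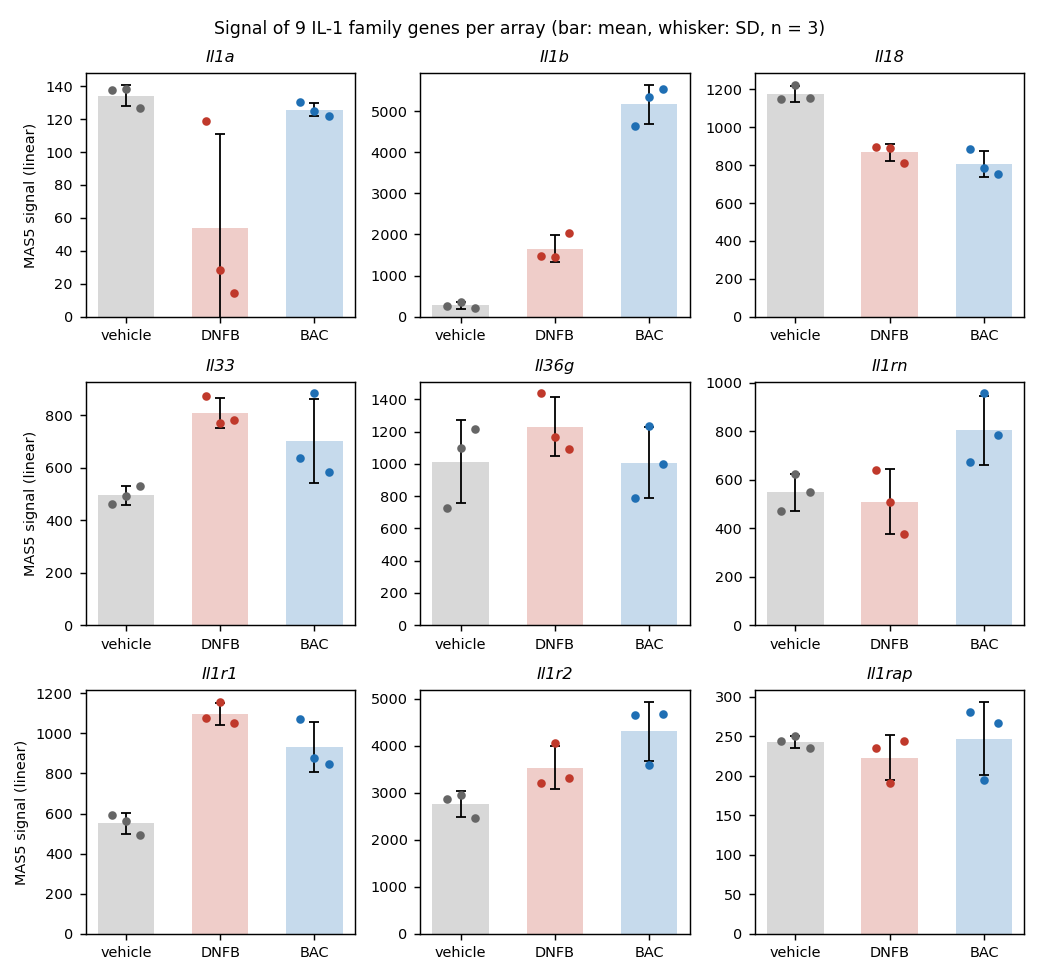
MAS5 signal (linear scale, each panel from 0) of the 9 measured members on each array, by treatment, with 1 point per array and a bar for the mean ± SD of 3 arrays (a whisker that would pass below 0 ends at 0, as for Il1a after DNFB). Il1b rose from a vehicle mean of 280 to 1649 after DNFB and 5164 after BAC, while Il1a had 1 of 3 DNFB arrays, at 119, close to its vehicle signals.

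Il1b (Entrez 16176), the gene of IL-1 beta, had the largest changes of the family. Its signals were 264, 368 and 207 on the vehicle arrays, 1468, 1451 and 2028 on the DNFB arrays and 4630, 5332 and 5532 on the BAC arrays. All 3 groups were apart, with the lowest BAC array above the highest DNFB array. The mean signal was 280 ± 81.6 (SD, n = 3) with vehicle, 1649 ± 328 with DNFB and 5164 ± 474 with BAC. The log2 change was 2.51 ± 0.18 (SE) after DNFB, with a limma adjusted p of 2.36e-07, and 4.16 ± 0.18 after BAC, with an adjusted p of 7.89e-10. Among 14122 genes ordered from the highest change, Il1b was number 14 after DNFB and number 2 after BAC. The direct comparison gave a signal lower after DNFB than after BAC by a log2 difference of -1.65 ± 0.18, with an adjusted p of 2.81e-05 and a 95% interval of -2.02 to -1.28.

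Neutrophil markers moved with Il1b. The summed signal of the 19 measured marker genes was 2250 to 7443 on the vehicle arrays, 13080 to 23771 on the DNFB arrays and 24654 to 33240 on the BAC arrays. Of 18 tested markers, 12 were higher after DNFB, 14 were higher after BAC and 0 were lower in either comparison (0 also at an unadjusted p under 0.05 in limma). Between the compounds 7 were lower after DNFB than after BAC. Among all tested genes 6.76% were called higher after DNFB, 6.59% higher after BAC and 3.66% lower after DNFB than after BAC. The filter asks for 3 of 9 arrays, so a marker that is dim with vehicle can pass through treated arrays alone. A fall of such a marker against the vehicle could hardly be called. The granule gene Camp lay below the 40th percentile on all 9 arrays. Ltf, also a granule gene, showed changes of -0.28 and 0.01 after DNFB and BAC, with limma adjusted p of 0.760 and 0.993. Lcn2 and Mmp9, granule genes of the same list, were called higher after both compounds. Lcn2 changed by 0.86 and 1.98 (adjusted p = 0.0212 and 3.12e-05) and Mmp9 by 0.64 and 1.15 (adjusted p = 0.0296 and 0.000557). The vehicle array with the highest marker sum, replicate 2, also had the highest vehicle signal of Il1b. Without that array the changes of Il1b were 2.72 after DNFB and 4.37 after BAC. Monocyte and macrophage markers were summed to 18458 to 22785 with vehicle, 23722 to 26951 with DNFB and 28289 to 29182 with BAC, with 4 and 6 of 15 tested genes higher and 0 lower (1 and 0 lower unadjusted). The part of these cells in the Il1b signal was not tested.

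Il1a (Entrez 16175), the gene of IL-1 alpha and the neighbour of Il1b, did not follow it. Signals were 137, 139 and 127 with vehicle, 119, 28.5 and 14.6 with DNFB and 130, 125 and 122 with BAC. The DNFB arrays lay below all vehicle and BAC arrays, but replicate 1 stood only slightly below them and far from the other two. Means were 134 ± 6.42 (SD, n = 3), 54.1 ± 56.7 and 126 ± 4.13. Il1a fell by 1.40 ± 0.40 on the log2 scale after DNFB, with a limma adjusted p of 0.0310, a change that was number 58 of 14122 genes from the lowest. In 2 of the 3 DNFB arrays the probe set lay below the 40th percentile of the array, so the size of this fall depends on how dim signals are treated: adding 1 to each signal before the logarithm gave -1.83 and adding 64 gave -0.85. The DNFB arrays with dim Il1a, replicates 2 and 3, had the highest actin 3′ to 5′ ratios of all arrays, 1.28 and 1.23, while replicate 1 had 1.09. BAC arrays, at 1.18 to 1.22, kept Il1a signals of 122 to 130. Without DNFB replicate 1 the change was -2.02 with an adjusted p of 0.000355. The call was lost without any 1 of the other DNFB arrays, at -1.22 (adjusted p = 0.108) without replicate 2 and -0.95 (adjusted p = 0.124) without replicate 3. It was also lost without any 1 vehicle array, with adjusted p of 0.0892, 0.0734 and 0.0794. After BAC the change of Il1a was -0.08 ± 0.40 with an adjusted p of 0.922 and a 95% interval of -0.95 to 0.78. DNFB and BAC differed by -1.32 ± 0.40 with an adjusted p of 0.0642, or by -1.94 with an adjusted p of 0.000971 without DNFB replicate 1.

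Il18 (Entrez 16173), a keratinocyte cytokine whose precursor is cut by caspase-1, fell after both compounds. Its signals were 1148, 1224 and 1153 with vehicle, 899, 890 and 814 with DNFB and 883, 783 and 755 with BAC. Every treated array lay below every vehicle array, whereas the DNFB and BAC arrays overlapped. From a vehicle mean of 1175 ± 42.7 (SD, n = 3) the signal went to 868 ± 46.7 with DNFB and 807 ± 67.4 with BAC. Changes were -0.43 ± 0.11 (limma adjusted p = 0.0147) and -0.54 ± 0.11 (adjusted p = 0.00374). The difference between the compounds was 0.10 ± 0.11, with an adjusted p of 0.632 and a 95% interval of -0.13 to 0.34. The call after DNFB was lost without DNFB replicate 3 (-0.39, adjusted p = 0.0566) and when each array was centred on its median (-0.44, adjusted p = 0.0607). Among keratinocyte markers, limma called 10 of 16 tested genes lower after DNFB and 6 of 16 after BAC, where 7.08% and 7.64% of all tested genes were. The number called higher was 0 (1 and 1 at an unadjusted p under 0.05). The summed signal of these markers was 119213 to 131918 with vehicle, 102946 to 120066 with DNFB and 114961 to 118382 with BAC. Their part in the falls of Il18, and of Il1a after DNFB, was not tested.

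Il33 (Entrez 77125), a nuclear cytokine released from damaged epithelial and stromal cells, rose after DNFB. Signals were 461, 495 and 533 with vehicle, 875, 772 and 781 with DNFB and 639, 884 and 586 with BAC. No treated array overlapped the vehicle arrays, and 1 BAC array, replicate 2, was above all others. Group means were 496 ± 36.0, 809 ± 56.8 and 703 ± 159 (SD, n = 3). The change after DNFB was 0.69 ± 0.15 with a limma adjusted p of 0.00495. After BAC it was 0.47 ± 0.15 with an adjusted p of 0.0430, a call that held in 6 of 19 alternative settings and was lost, among others, without BAC replicate 2 (0.30, adjusted p = 0.204), without BAC replicate 1 (adjusted p = 0.0531) and without any 1 vehicle array (adjusted p of 0.153, 0.0870 and 0.0636). It was lost too without DNFB replicate 2 or 3, which enter the shared estimate of the spread (adjusted p of 0.0501 and 0.0563). Between the compounds the difference was 0.22 ± 0.15, with an adjusted p of 0.416 and a 95% interval of -0.09 to 0.53. Fibroblast markers had a summed signal of 75103 to 84972 with vehicle, 94916 to 108094 with DNFB and 85958 to 100925 with BAC. Of 11 tested genes, 4 were higher after DNFB, 2 after BAC and 0 lower (0 also unadjusted). Among all tested genes 6.76% and 6.59% were called higher. Keratinocyte markers went the other way, with 10 and 6 of 16 tested genes lower and 0 higher (1 and 1 unadjusted). Endothelial, mast cell and skeletal muscle markers, given below, also had genes called higher after DNFB. The part of these cells in the change of Il33 was not tested.

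Il36g (Entrez 215257) showed no call in any comparison. The signals ran from 727 to 1219 with vehicle, from 1093 to 1438 with DNFB and from 790 to 1233 with BAC, so that the 3 groups overlapped. Changes were 0.30 ± 0.19 after DNFB (limma adjusted p = 0.347) and 0.00 ± 0.19 after BAC (adjusted p = 0.998). The 95% intervals were -0.10 to 0.70 and -0.40 to 0.40. Changes inside these intervals were not excluded.

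The antagonist gene Il1rn (Entrez 16181) was read by 3 probe sets that differed. The brightest, used for the gene, gave 471, 625 and 552 with vehicle, 642, 510 and 376 with DNFB and 675, 957 and 784 with BAC. BAC arrays were above all vehicle and DNFB arrays, and the DNFB and vehicle arrays overlapped. The change was -0.13 ± 0.18 after DNFB (limma adjusted p = 0.720) and 0.53 ± 0.18 after BAC (adjusted p = 0.0642), with a 95% interval of 0.15 to 0.92 for the latter. DNFB was lower than BAC by -0.66 ± 0.18, with an adjusted p of 0.0400. This call was lost without DNFB replicate 3 (-0.47, adjusted p = 0.165), DNFB replicate 2 (adjusted p = 0.0914), BAC replicate 2 (-0.53, adjusted p = 0.174), BAC replicate 3 (adjusted p = 0.0921) or vehicle replicate 3 (adjusted p = 0.0511). Conversely the BAC change was called without DNFB replicate 1 (adjusted p = 0.0390), DNFB replicate 3 (adjusted p = 0.0372) or BAC replicate 1 (0.65, adjusted p = 0.0456), and with only the 6 arrays of BAC and vehicle in the fit (adjusted p = 0.0338).

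The other Il1rn probe sets did not show the higher BAC signal. Probe set 1423017_a_at gave 412, 471 and 389 with vehicle, 376, 287 and 242 with DNFB and 457, 429 and 416 with BAC, so that here the DNFB arrays lay below the rest. In the fit over 29987 probe sets its changes were -0.49 ± 0.16 after DNFB (limma adjusted p = 0.0711) and 0.04 after BAC, and the DNFB value was -0.65 with an adjusted p of 0.0194 without DNFB replicate 1. Probe set 1425663_at gave means of 301, 281 and 328 for vehicle, DNFB and BAC, with changes of -0.12 and 0.11 and adjusted p of 0.772 and 0.782. The mean over the 3 probe sets put the difference between DNFB and BAC at -0.47 with an adjusted p of 0.115. All 3 probe sets had the lower mean signal after DNFB than after BAC, while the sizes depended on the probe set.

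**Figure D2:**
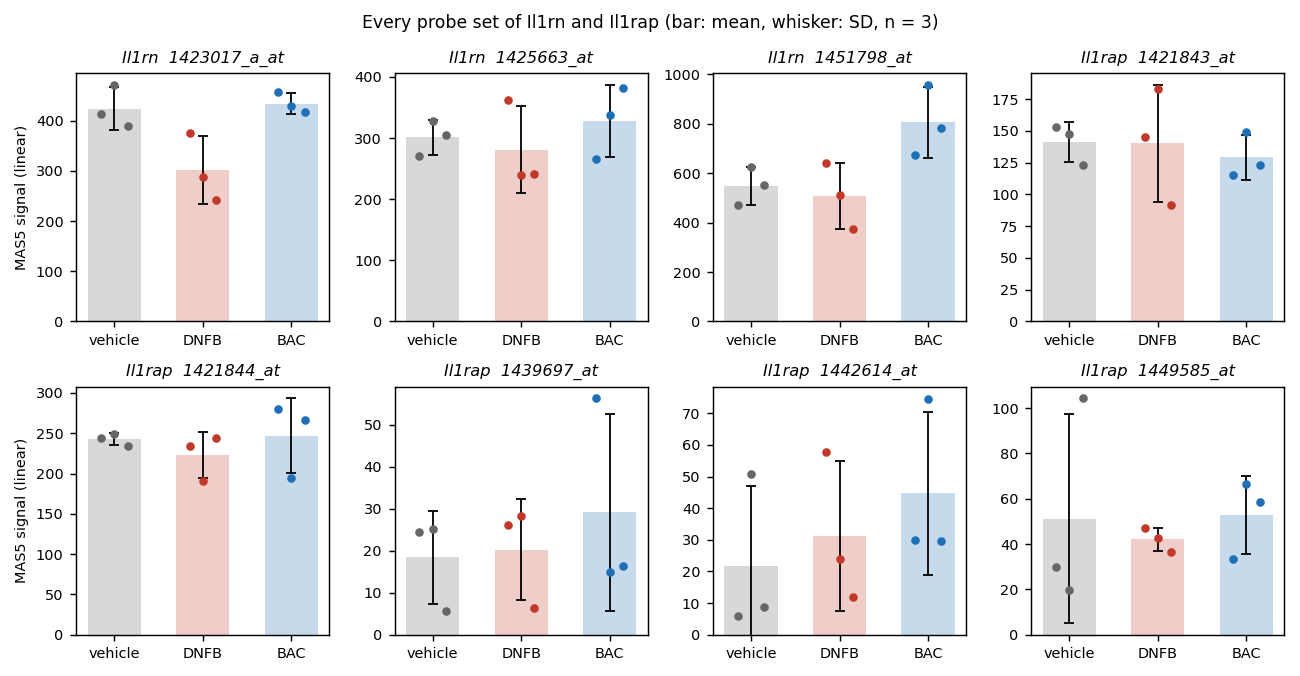
MAS5 signal (linear scale, each panel from 0) of the 3 probe sets of Il1rn and the 5 of Il1rap by treatment, with 1 point per array and a bar for the mean ± SD of 3 arrays (a whisker that would pass below 0 ends at 0). The treatment whose arrays stand apart differs between the Il1rn probe sets: BAC is high in 1451798_at, at a mean of 805 against 549 with vehicle, and DNFB is low in 1423017_a_at, at 302 against 424.

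Il1r1 (Entrez 16177), the signalling receptor for both IL-1 ligands, rose after both compounds. Signals of its bright probe set were 595, 562 and 494 with vehicle, 1078, 1157 and 1054 with DNFB and 1073, 876 and 845 with BAC. All treated arrays were above all vehicle arrays. The mean went from 550 ± 51.6 (SD, n = 3) to 1096 ± 54.1 with DNFB and 931 ± 124 with BAC. Changes were 0.98 ± 0.12 (limma adjusted p = 7.2e-05) and 0.74 ± 0.12 (adjusted p = 0.000848), and the compounds differed by 0.24 ± 0.12 with an adjusted p of 0.287 and a 95% interval of -0.03 to 0.50. The second probe set, 1459777_at, lay below the 40th percentile on 9 of 9 arrays. Averaging it in gave changes of 0.46 (adjusted p = 0.276) and 0.49 (adjusted p = 0.240).

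Il1r2 (Entrez 16178), the decoy receptor, rose after BAC. Its signals were 2874, 2955 and 2452 with vehicle, 3209, 4059 and 3322 with DNFB and 4652, 3587 and 4683 with BAC. Vehicle arrays were the lowest, and the DNFB and BAC arrays overlapped. The change was 0.35 ± 0.13 after DNFB, short of the threshold at a limma adjusted p of 0.0871, and 0.63 ± 0.13 after BAC, with an adjusted p of 0.00362. The difference between the compounds was -0.28 ± 0.13, with an adjusted p of 0.214 and a 95% interval of -0.56 to -0.01.

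Il1rap (Entrez 16180), the accessory chain that the IL-1, IL-33 and IL-36 receptors share, was called in no comparison. Its brightest probe set gave 244, 250 and 235 with vehicle, 234, 190 and 243 with DNFB and 280, 194 and 266 with BAC, with all groups overlapping. Changes were -0.12 ± 0.17 (limma adjusted p = 0.714, 95% interval -0.49 to 0.24) and 0.01 ± 0.17 (adjusted p = 0.985, 95% interval -0.36 to 0.37). None of the other 4 Il1rap probe sets was called, and 2 of them did not pass the filter on low signals.

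**Figure D3:**
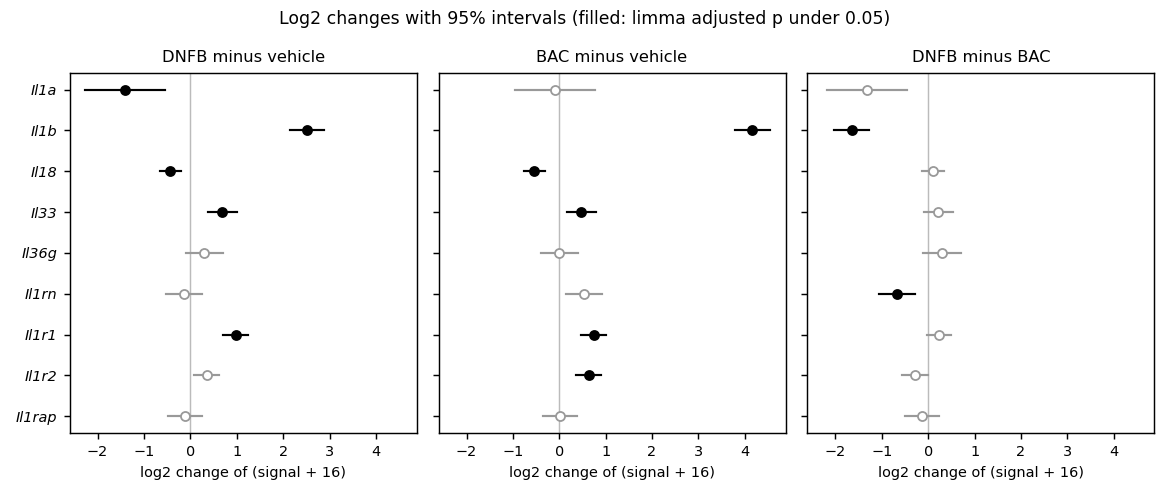
Log2 change of each measured member, on the log2(signal + 16) scale, for DNFB against vehicle, BAC against vehicle and DNFB against BAC, with 95% intervals from the limma fit and filled points for calls at an adjusted p under 0.05. Il1b has the highest changes against the vehicle, 2.51 and 4.16, and Il1a the lowest after DNFB, -1.40.

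Counting arrays in place of p-values, 6 of 9 members had no overlap between DNFB and vehicle arrays, where 30.9% of all tested genes had none. For BAC and vehicle it was 6 of 9, where 34.1% of all tested genes had none, and for DNFB and BAC it was 3 of 9, namely Il1a, Il1b and Il1rn, against 25.2%. The median change of the members was 0.30 after DNFB and 0.47 after BAC, where the median of all tested genes was 0.00 and -0.03. In the fit over single probe sets, 5, 4 and 1 of the 13 tested probe sets of members were called in the 3 comparisons, where 10.4%, 10.2% and 4.96% of all tested probe sets were called.

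Most members lie in runs of IL-1 genes in the mouse genome, and neighbours in a run did not all share a direction. Il18, Il33 and Il1rap lie outside these runs, on chromosomes 9, 19 and 16. On chromosome 1 the RefSeq order is Il1r2, Il1r1, Il1rl2, Il1rl1, Il18r1 and Il18rap. Next to the risen Il1r1, the IL-36 receptor gene Il1rl2 had changes of -0.12 after DNFB and -0.29 after BAC, with limma adjusted p of 0.638 and 0.164. Il18r1 lay below the 40th percentile on 9 of 9 arrays, and Il18rap, the accessory chain of the IL-18 receptor, had 0.05 and 0.88 ± 0.30 with adjusted p of 0.950 and 0.0693. On chromosome 2 a run holds Il36b, Il36g, Il36a, Il36rn, Il1f10 and Il1rn in that order.

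Around Il36g and Il1rn, which were not called against the vehicle, 3 genes of that run were lower after both compounds. Il36b, another IL-36 ligand, fell by 0.80 ± 0.14 after DNFB (limma adjusted p = 0.00135) and by 0.82 ± 0.14 after BAC (adjusted p = 0.00117), from a mean signal of 615 ± 48.8 (SD, n = 3) to 346 ± 44.1 and 342 ± 43.3. Il36rn, the antagonist of the IL-36 receptor, fell by 0.63 ± 0.12 (adjusted p = 0.00169) and by 0.65 ± 0.12 (adjusted p = 0.00141), from 1541 ± 179 to 985 ± 69.9 and 974 ± 65.2. Il1f10, the gene of IL-38, fell by 0.62 ± 0.17 in both, with adjusted p of 0.0259 and 0.0243. Il36a was not called, at -0.20 (adjusted p = 0.629) and -0.29 (adjusted p = 0.431).

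**Figure D4:**
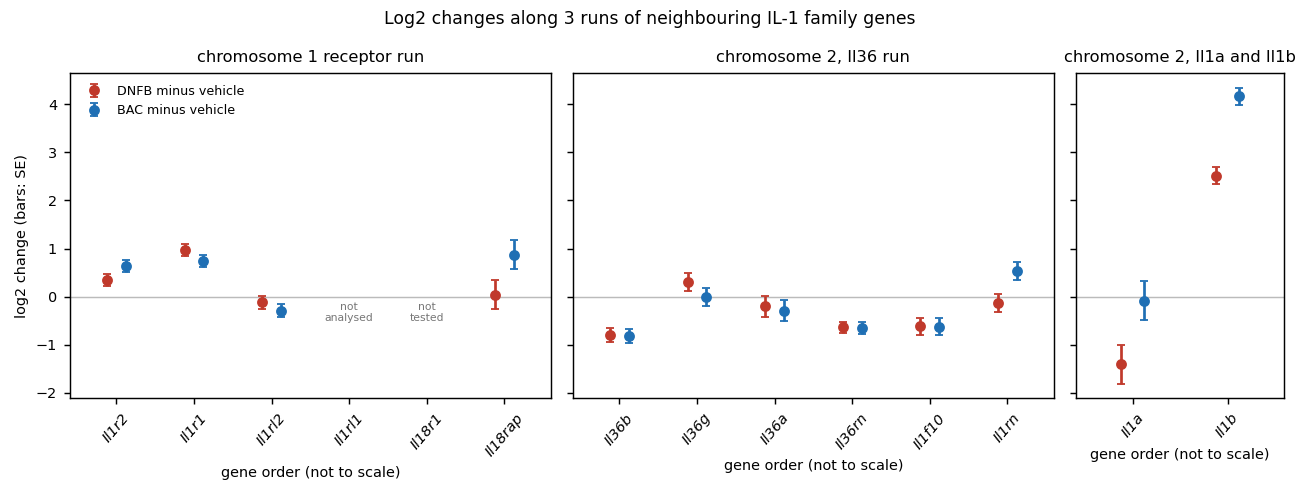
Log2 change against vehicle, on the log2(signal + 16) scale with the SE as bars, of IL-1 family genes in RefSeq order within 3 runs of neighbours on chromosomes 1 and 2, for DNFB (red) and BAC (blue), with Il1rl1 not analysed and Il18r1 not tested. In the run from Il36b to Il1rn the falls of Il36b, Il36rn and Il1f10 (-0.62 to -0.82) stand among Il36g, Il36a and Il1rn, which were not called, and Il1a fell while Il1b rose after DNFB.

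Of the other IL-1 family ligands and receptors, 7 of 11 genes were tested, and the 3 falls just given were the calls after DNFB and after BAC. Among all tested genes 7.08% and 7.64% were called lower. Between the compounds limma gave 0 calls (1 at an unadjusted p under 0.05). Sigirr, an inhibitory receptor of the family, had changes of -0.36 and -0.37 with limma adjusted p of 0.307 and 0.279. Il18bp, the IL-18 binding protein, lay below the 40th percentile on 9 of 9 arrays. The median change of the list was -0.36 after DNFB and -0.37 after BAC.

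Genes that process and release IL-1 family cytokines were called in both directions. Of 21 tested genes of 25 listed, 4 were higher and 4 lower after DNFB, where 6.76% of all tested genes were called higher and 7.08% lower. After BAC 3 were higher and 3 lower, where 6.59% and 7.64% of all tested genes were. Median changes of the list were 0.21 and 0.18. Nlrp3, the sensor of an inflammasome, had signals of 141 ± 26.7 with vehicle, 194 ± 6.96 with DNFB and 350 ± 14.8 with BAC (SD, n = 3). It rose after BAC by 1.23 ± 0.17 (limma adjusted p = 0.00013), while its change after DNFB was 0.43 with an adjusted p of 0.105, and the compounds differed by -0.80 with an adjusted p of 0.00938. Casp1, the caspase that cuts IL-1 beta and IL-18, had changes of -0.21 and 0.08 with adjusted p of 0.669 and 0.876. Casp4, an inflammasome caspase that senses lipopolysaccharide, rose after BAC by 1.23 ± 0.21 (adjusted p = 0.00105), and Gsdma, a pore-forming gasdermin of the epidermis, fell by 1.12 ± 0.16 after DNFB and by 0.99 ± 0.16 after BAC. Pycard, an inflammasome adaptor gene, was lower after both, at -0.40 ± 0.11 (adjusted p = 0.0277) and -0.70 ± 0.11 (adjusted p = 0.000645). Nlrp10 was also lower after both, at -1.13 ± 0.18 (adjusted p = 0.000584) and -0.74 ± 0.18 (adjusted p = 0.0127). Gzmb, a protease of cytotoxic lymphocytes that can also cut IL-1 alpha, had a mean vehicle signal of 31.1 ± 13.6 (SD, n = 3), below the 40th percentile of those arrays (46.2 to 57.5), and passed the filter through the treated arrays, at 107 ± 15.9 with DNFB and 353 ± 65.6 with BAC. It was called higher after both compounds, and the size is not given because it depends on how the dim vehicle signal is treated. Among 10 tested T cell and innate lymphocyte markers, limma called 0 higher (0 also unadjusted) and 3 lower after DNFB, and 1 higher and 2 lower after BAC.

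In the signalling chain below the receptor, 3 of 27 tested genes were higher and 3 lower after DNFB, and 5 were higher and 1 lower after BAC. These counts stand beside 6.76% higher and 7.08% lower of all tested genes after DNFB and 6.59% and 7.64% after BAC, and the median changes of the list were -0.09 and 0.00. Myd88, the adaptor of the receptor, had mean signals of 780 ± 56.1, 1050 ± 86.6 and 1683 ± 288 with vehicle, DNFB and BAC (SD, n = 3). Its changes were 0.42 ± 0.13 (limma adjusted p = 0.0422) and 1.08 ± 0.13 (adjusted p = 4.12e-05), and DNFB was lower than BAC by -0.66 with an adjusted p of 0.00616. Rela, an NF-kB subunit, rose by 0.41 ± 0.12 after DNFB (adjusted p = 0.0349) and by 0.76 ± 0.12 after BAC (adjusted p = 0.000509). Irak2, a kinase of the receptor complex, rose by 0.67 ± 0.17 after BAC (adjusted p = 0.0178), and its change after DNFB was 0.00 with an adjusted p of 0.994. The inhibitors, a list of 18 genes that includes the members Il1rn and Il1r2, had 17 tested genes, with 3 higher and 3 lower after DNFB and 10 higher and 1 lower after BAC, beside the same shares of all tested genes, and median changes of -0.04 and 0.72. Between the compounds 7 of them were lower after DNFB and 0 higher (0 also at an unadjusted p under 0.05 in limma). Of all tested genes 3.66% and 3.14% were called in those directions. Tnfaip3, which encodes the NF-kB inhibitor A20, fell by 1.05 ± 0.16 after DNFB and rose by 2.34 ± 0.16 after BAC, with a difference of -3.39 ± 0.16 (limma adjusted p = 2.27e-08). Socs3, an inhibitor of cytokine signalling, rose after both, by 2.47 ± 0.21 and 3.08 ± 0.21. Irak3, an inhibitory kinase of the receptor complex, had 0.46 after DNFB (adjusted p = 0.0971) and 0.79 ± 0.18 after BAC (adjusted p = 0.00673). It is also 1 of the 5 genes of the signalling chain called higher after BAC.

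Among genes that IL-1 is known to induce, most were called higher after BAC. Of 32 tested genes of 36 listed, 17 were higher and 3 lower after DNFB, where 6.76% of all tested genes were called higher and 7.08% lower. After BAC 27 were higher and 0 lower (0 also at an unadjusted p under 0.05 in limma), where 6.59% of all tested genes were called higher and 7.64% lower. These counts include dim genes. Cxcl5, Csf3, Lif and Il11 had mean vehicle signals of 19.2, 29.5, 43.0 and 21.1, below the 40th percentile of those arrays (46.2 to 57.5). A fall of such genes could hardly be called. Cxcl5 and Lif were called higher after both compounds, Il11 after DNFB and Csf3 after BAC. The median change of the list was 0.75 after DNFB and 1.49 after BAC, against 0.00 and -0.03 for all tested genes. Il6, a cytokine made by stromal and immune cells, rose by 4.07 ± 0.21 after DNFB (limma adjusted p = 1.38e-08) and by 5.34 ± 0.21 after BAC (adjusted p = 5.53e-10). The neutrophil chemokine genes Cxcl1 and Cxcl2 rose by 2.44 ± 0.25 and 2.23 ± 0.34 after DNFB and by 3.40 ± 0.25 and 3.79 ± 0.34 after BAC. Between the compounds 19 genes of the list were lower after DNFB and 0 higher (0 also unadjusted), where 3.66% and 3.14% of all tested genes were called in those directions. Ccl20, an epithelial chemokine, went opposite ways, at -2.06 ± 0.43 after DNFB (adjusted p = 0.00468) and 1.59 ± 0.43 after BAC (adjusted p = 0.0228). Many signals other than IL-1 also induce these genes, and the lists share genes. Tnfaip3, Nfkbia, Zc3h12a and Irak3 stand in this list and in the list of inhibitors, and Lcn2 and Mmp9 in this list and among the neutrophil markers. Irak3 and Tollip stand both in the receptor signalling list and in the list of inhibitors.

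**Figure D5:**
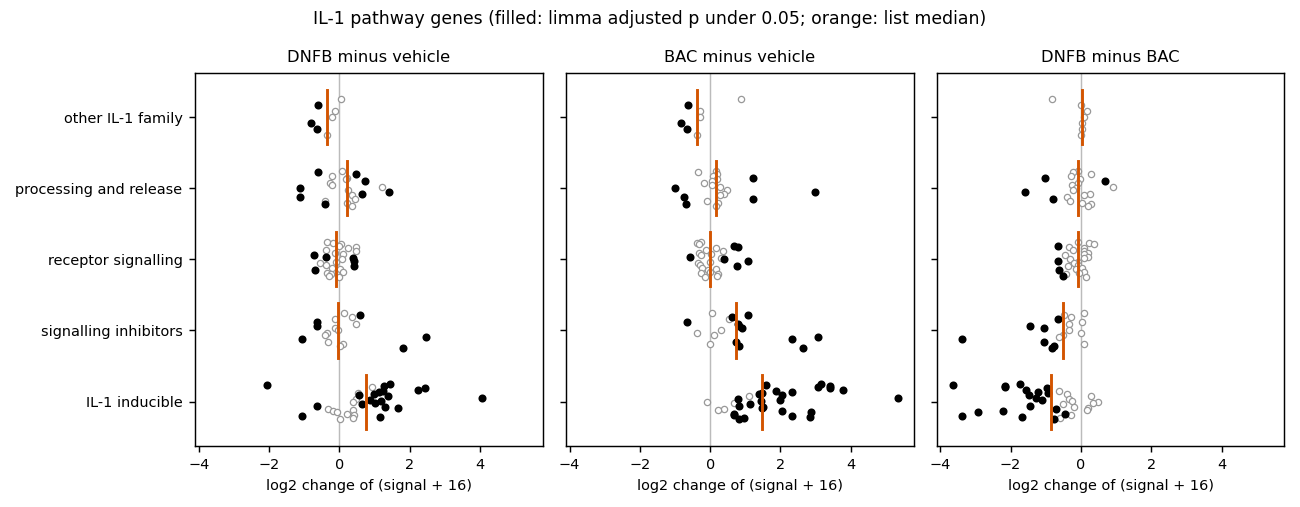
Log2 change, on the log2(signal + 16) scale, of each tested gene of 5 IL-1 lists for DNFB minus vehicle, BAC minus vehicle and DNFB minus BAC, with 1 point per gene, an orange line for the median of the list and filled points for calls at a limma adjusted p under 0.05. The inducible genes have medians of 0.75 after DNFB, 1.49 after BAC and -0.85 between the compounds, and the receptor signalling list has medians of -0.09, 0.00 and -0.09.

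Over the 9 arrays the tested genes most like each member were found by Pearson's r of log2 values, as a description with arrays of the same 3 groups behind every point. For Il1b these were Srgn (r = 0.996), a granule proteoglycan, Itgb2 (r = 0.996), a leukocyte integrin chain, and Gadd45g (r = 0.995). Srgn had changes of 1.40 after DNFB and 2.18 after BAC, Itgb2 0.87 and 1.56, and Gadd45g 1.72 and 2.71, all with BAC above DNFB as for Il1b. Il1a was most like B230216N24Rik, Yju2 and Tfap2a, with r from 0.958 to 0.973. Il1r1 was most like Tbc1d19, Rnf114 and the complement gene C1ra, with r from 0.980 to 0.987, and Il18 most like Exph5, Reep4 and Inf2, with r from 0.965 to 0.971. Il33 had Ppp1r11, Tnc and Gmppb, with r from 0.941 to 0.946, Il1r2 had Ntrk2, Scd2 and Ddx3x, with r from 0.946 to 0.959, and Il1rn had Cd44, Pde12 and F11r, with r of 0.941 each.

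Other cell type lists, and a fit without the array that stood apart by its Gapdh ratio, were set beside these results. Mast cell markers were higher in 6 of 10 tested genes after DNFB and 2 after BAC, with 0 lower by limma (0 also unadjusted). Hdc, called higher among the mast cell markers after both compounds, is also counted among the neutrophil markers. Cma1 and Mcpt4, mast cell markers called higher after DNFB, are also counted in the list of processing and release genes. Langerhans and dendritic cell markers were lower in 3 of 12 tested genes after DNFB, and after BAC 5 were higher and 1 lower. Endothelial markers were higher in 2 of 12 in both, and skeletal muscle markers higher in 8 of 18 after DNFB and 0 after BAC by limma (4 at an unadjusted p under 0.05). Beside these counts, 6.76% of all tested genes were called higher and 7.08% lower after DNFB, and 6.59% and 7.64% after BAC. Without DNFB replicate 2, the array with the high Gapdh ratio, the changes after DNFB were 2.59 for Il1b, 0.94 for Il1r1 and 0.72 for Il33, all still called, and 4 members were called in all. The part of these differences in the members' changes was not tested.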

How the data were processed

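Total RNA of mouse ear skin was labelled by 3′ in vitro transcription and read on 9 Affymetrix arrays. The values the authors deposited are linear MAS5 intensities per probe set. The submitters' processing notes name MAS5 and Affymetrix Expression Console, and the sources used here give no settings. The mean signal without the highest and lowest 2% of probe sets was 249.9 on each array, so that arrays had been scaled alike, and a change of most RNAs in one direction would not be seen. No detection call or batch entered the analysis, and 3 arrays a group limit the precision.

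Probe sets were named from the platform annotation (34945 with 1 gene, 932 with several, 9160 not listed). Of the 34945, 34741 matched RefSeq GRCm38.p6 identifiers, and 5 genes under older symbols were renamed by synonym. The 64 control probe sets were left out. Each gene was read by its brightest probe set on average (log2). Genes above the array's 40th percentile in at least 3 of 9 arrays were tested (14122 of 18193; 29987 probe sets in the probe-set fit). limma 3.58.1 in R 4.3.3 was fitted to log2(signal + 16) over all 9 arrays, with an intensity trend, two-sided, and Benjamini-Hochberg adjustment at 0.05. Changes of dim genes are understated on this scale. An exact test of 3 against 3 arrays cannot go below p = 0.1 and was not run. The procedure was tested on simulated data.

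The members, gene lists and naming rule were chosen with earlier results of these data known. The rule names all members, up to 4 called genes of largest change per pathway list and comparison, a few fixed pathway genes, and the 3 genes most like each member past the F test. Il36b, Il1f10, Camp, Ltf, Cxcl5, Csf3, Lif, Il11, Pycard and genes shared between lists were named outside it, after their values were seen. Alternatives changed the pseudocount, filter, normalization, choice of probe set, trend, arrays fitted and replicate block.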

Additional observations from a re-analysis of the deposited data

How the results depend on the processing

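Limits: 3 arrays a group and dim signals (Il1a after DNFB, Gzmb, Cxcl5, Csf3, Lif and Il11 with vehicle, the second probe set of Il1r1) set the precision. Over 19 alternatives the calls of Il1b held in all 3 comparisons; calls of other members lost without 1 array are given beside their values. Other settings ended the call of Il1a after DNFB (no filter, no trend, 6 arrays only), of Il33 after BAC (no filter, centring, mean of probe sets, no trend, 6 arrays only, replicate block), of Il1rn between the compounds (no filter, quantile normalization, centring, mean of probe sets, no trend), of Il18 after DNFB (centring) and of Il1r1 after both (mean of probe sets). The cause was not tested. Alternatives for single probe sets of members were chosen after seeing the data.

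Directions of uncalled values turned as follows. Il1rap after DNFB was 0.057 with the mean of probe sets, its probe set 1449585_at 0.076 with a pseudocount of 1 and its probe set 1421843_at 0.028 with quantile normalization. With each array centred on its median, changes after BAC were -0.079 for Il1rap, -0.085 for Il36g and -0.051 for Il1rn probe set 1423017_a_at. Il1r1 between DNFB and BAC was -0.024 with the mean of probe sets, of which 1 is dim. Leaving out 1 array gave -0.31 to 0.068 for Il1rn after DNFB, -0.22 to 0.16 for Il36g after BAC, -0.087 to 0.16 for Il1rap after BAC, -0.022 to 0.11 for 1423017_a_at and -0.0035 to 0.25 for 1425663_at after BAC. It gave -0.25 to 0.19 for 1421843_at after DNFB and -0.13 to 0.31 between the compounds, and -0.36 to 0.52 and -0.15 to 0.73 for 1449585_at after DNFB and BAC.

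Without the intensity trend calls numbered 1202 genes after DNFB (1955 with it), 1387 after BAC (2009), 402 between the compounds (961), 1635 by the F test (2741), and 1596, 1608 and 539 probe sets in the 3 comparisons (3130, 3045 and 1487). Centring gave 988 probe sets between the compounds, and it moved the share of calls that were higher after BAC from 46.3% to 34% of 1784 genes. Members called numbered 3 after BAC with the mean of probe sets, and 1 between the compounds without a filter, with quantile normalization, centring, the mean of probe sets or no trend. Leaving out 1 array gave 1249 to 1929 genes after DNFB, 1225 (without vehicle replicate 1) to 2148 after BAC, 513 to 999 between the compounds and 1828 to 2653 by the F test. Members called were then 3 to 5, 4 to 6 and 1 to 3, and probe sets 1816 to 3034, 1691 to 3352 and 753 to 1461.

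Arrays with the same replicate number did not deviate together (r of deviations -0.12 to 0.15 in 9 pairs, -0.16 to 0.12 in 18 pairs of different number), so the numbers were not used as pairs. Whether ears came from the same animals is not stated in the labels, and with 3 arrays a group such pairing is not excluded. With the replicate block, 1874, 1939 and 860 genes were called, and members called were 5, 4 and 2: Il33 after BAC had an adjusted p of 0.0530 and no other member call changed.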
